A study of Mus musculus with 12 samples.

Results

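Mitosis and spindle genes were followed here across mouse spleen T cells that had been cultured, activated or freshly isolated. The 47 genes encode the kinases that start mitosis, the spindle checkpoint, the chromosomal passenger complex, kinetochore proteins, spindle motors, condensins, the machinery of anaphase and that of cytokinesis. They were chosen by name, and 46 of them have a probe set that carries only their symbol, out of 18193 such genes on the array. Ccnb1 is the exception and was not analysed here. Where a gene has several probe sets, the one with the brightest average signal stands for it, and each value below is a log2 signal.

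The RNA came from female C57BL/6 mice of 8 to 12 weeks, 1 Affymetrix array per sample. NKT-like cells (n = 5) were splenic CD8+ T cells expanded in independent cultures on beads coated with anti-CD3 and anti-CD28 plus high dose IL-2, and cultured CD4+ cells (n = 3) were sorted CD4+ T cells grown the same way. Activated cells (n = 2) were CD8+ T cells given a low dose of soluble antibodies to CD3 and CD28, and naive cells (n = 2) were CD8+ T cells purified by negative selection and not cultured. As no naive CD4+ sample was analysed here, lineage and culture cannot be told apart when cultured CD4+ cells are set against naive cells. The CD8 and CD4 coreceptor genes fitted the labels in all 12 arrays. The samples are bulk RNA, in which more dividing cells and more mitotic mRNA in each cell cannot be told apart, and the p-values measure only the spread between these arrays.

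Cells entering mitosis switch on cyclin-dependent kinase with B-type cyclins, condense their chromosomes and attach them to the spindle through kinetochores. The spindle checkpoint restrains the anaphase-promoting complex until every chromosome is attached. The complex then marks securin and cyclin B for destruction, separase opens cohesin, and the midzone motors guide the division of the cell. Transcripts of most of these proteins are made late in the cell cycle, and resting T cells hold few of them until an antigen receptor signal starts division.

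Promoters of the group share short sequence elements, which the choice of genes did not use. Many late cell cycle genes are known to carry a cell cycle homology region, written here as TTTGAA, near the start of transcription, together with the letters CCAAT, which NF-Y binds. The 100 bases before the start are shown for 6 genes whose signal in NKT-like cells passed as higher than naive and that hold TTTGAA there (Ube2c, Ncapg, Espl1, Top2a, Kif11 and Prc1), for Bub3, which holds it with a change that missed the threshold, and for Pttg1, which holds neither element. The sequences are from RefSeq (GRCm38.p6), 5′ to 3′ on the strand of the gene, and capitals mark TTTGAA and CCAAT or their reverse complements TTCAAA and ATTGG. Their positions are Ube2c chr2:164769829-164769928 (+ strand), Ncapg chr5:45669825-45669924 (+ strand), Espl1 chr15:102296193-102296292 (+ strand), Top2a chr11:99024190-99024289 (- strand), Kif11 chr19:37376282-37376381 (+ strand), Prc1 chr7:80294376-80294475 (+ strand), Bub3 chr7:131560270-131560369 (+ strand) and Pttg1 chr11:43425982-43426081 (- strand). For Prc1 the downstream of 2 annotated starts is shown, and for Bub3 the first.
Ube2c: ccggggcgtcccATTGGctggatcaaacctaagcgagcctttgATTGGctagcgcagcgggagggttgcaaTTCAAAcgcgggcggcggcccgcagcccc
Ncapg: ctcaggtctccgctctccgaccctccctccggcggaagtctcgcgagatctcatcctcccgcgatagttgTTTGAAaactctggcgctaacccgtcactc
Espl1: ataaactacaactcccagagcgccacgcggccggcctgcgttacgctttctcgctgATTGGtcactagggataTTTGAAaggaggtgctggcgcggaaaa
Top2a: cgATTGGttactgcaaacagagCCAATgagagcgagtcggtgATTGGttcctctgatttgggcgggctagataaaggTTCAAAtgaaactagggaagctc
Kif11: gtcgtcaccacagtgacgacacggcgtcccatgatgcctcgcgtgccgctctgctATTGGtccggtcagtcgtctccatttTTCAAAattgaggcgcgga
Prc1: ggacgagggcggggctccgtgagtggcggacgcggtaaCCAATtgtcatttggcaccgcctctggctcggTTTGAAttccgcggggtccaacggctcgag
Bub3: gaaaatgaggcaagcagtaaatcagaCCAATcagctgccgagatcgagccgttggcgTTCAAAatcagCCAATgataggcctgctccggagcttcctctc
Pttg1: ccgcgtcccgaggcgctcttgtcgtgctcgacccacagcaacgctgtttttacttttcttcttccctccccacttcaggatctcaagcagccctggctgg

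Of the 46 genes, 37 have a promoter in the RefSeq table, and they have 40 promoters of 250 bases before to 50 bases after the start. TTTGAA on either strand was present in 31 of the 40 (77.5%) and in 17.9% of all 32851 promoters. CCAAT was also present in 31 of the 40 (77.5%), against 37.4% of all promoters. Both elements stood together in 28 of the 40 (70.0%), against 6.95% of all promoters. The E2F letters TTTGGCGC or TTTCCCGC were found in 1 of the 40 (2.5%) and in 1.56% of all promoters. The E2F letters were more frequent among genes of DNA replication and nucleotide supply, where they were in 28.9% of 38 promoters and the pair of elements was in 7.89%. Other mitosis genes lay between, with the E2F letters in 12.3% of 57 promoters and the pair in 29.8%. Matches of different motifs may share an end base. Both elements were present in 11 of 17 genes called higher in NKT-like cells against naive cells (64.7%) and in 14 of the 20 other genes with a promoter (70.0%). The matches describe letters in a window and were not tested for binding.

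Against naive cells, NKT-like cells had a higher signal for 20 of the 46 genes (43.5%) and a lower one for 1, Smc4, at a q-value of 0.01 or less in limma. Over all 18193 genes the shares were 10.7% higher and 6.86% lower. The median log2 difference of the 46 genes was 1.14, a 2.20-fold higher signal, against -0.05 over all genes. The genes that passed included Ube2c, which encodes the ubiquitin-conjugating enzyme of the anaphase-promoting complex (5.65-fold), Ncapg, a condensin subunit (4.76-fold), Kif20a, a kinesin of the spindle midzone (4.53-fold), and Plk1, a kinase of mitotic entry (3.80-fold). In 24 genes all 5 NKT-like arrays lay above both naive arrays, and this was so for 20.9% of all genes. At an unadjusted p under 0.05, 37 of the 46 differed, against 38.8% of all genes.

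The signals stood higher still in cultured CD4+ cells. There 40 of 46 were higher than in naive cells (87.0%) and none was lower, against 11.6% and 5.64% of all genes, and the median log2 difference was 2.09 (4.26-fold). The lowest of the 46 differences, that of Smc4, was -0.50. In activated cells 24 of 46 were higher than in naive cells (52.2%) and 0 were lower, against 4.43% and 2.78% of all genes, with a median log2 difference of 1.87 (3.65-fold). At an unadjusted p under 0.05, 44 genes differed in cultured CD4+ cells and 41 in activated cells (38.7% and 27.2% of all genes), all of them higher. All arrays lay above both naive arrays for 44 genes in cultured CD4+ cells and 42 in activated cells, against 25.6% and 21.1% of all genes. The 3 comparisons use the same 2 naive arrays and are not independent of each other.

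The order of group means was the same for most genes. Cultured CD4+ cells were highest, then activated, NKT-like and naive cells, in 36 of the 46 genes. Cultured CD4+ cells held the highest mean in 41 genes, activated cells in 4 (Plk1, Bub1, Cdc20 and Espl1) and naive cells in 1 (Smc4). No share of all genes is given for these counts, so whether the order is particular to the 46 genes cannot be told. Neighbours in the order of means did not always separate. For cultured CD4+ against activated cells the sign differed between probe sets in 19 of the 31 genes with several. Between cultured CD4+ and activated cells 0 genes passed in either direction (background 1.53% higher and 0.319% lower), 6 had an unadjusted p under 0.05 (17.6% of all genes), and 13 had all cultured CD4+ arrays above both activated arrays, against 15.5% of all genes.

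Within groups, single arrays differed more for these genes than for most. The median SD of the 46 genes was 0.55 among NKT-like arrays, against 0.15 over all genes, 0.22 among cultured CD4+ arrays (0.17), 0.40 among activated arrays (0.28) and 0.25 among naive arrays (0.13). The values over all genes were not matched for signal level. Of the 46 genes, 0 had an NKT-like mean and 2 had a naive mean under the median of all values, 6.3. Set against the mean of the naive arrays, the median of the 46 genes was 1.61, 1.40, 0.30, 1.44 and 1.02 in NKT-like replicates 1 to 5, 1.87, 2.22 and 2.26 in the cultured CD4+ arrays, 2.24 and 1.59 in the activated arrays, and -0.15 and 0.15 in the naive arrays. NKT-like replicate 3 therefore stood nearest to the naive arrays and was the lowest of its group for 43 of the 46 genes. Its array median over all probe sets was 6.28, but the quantile normalization in RMA draws array medians together. That median cannot show whether other genes were also low in NKT-like replicate 3, which was not tested. NKT-like replicate 1 was the highest of its group for 26 genes, and activated replicate 1 was above activated replicate 2 for all 46.

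**Figure D1:**
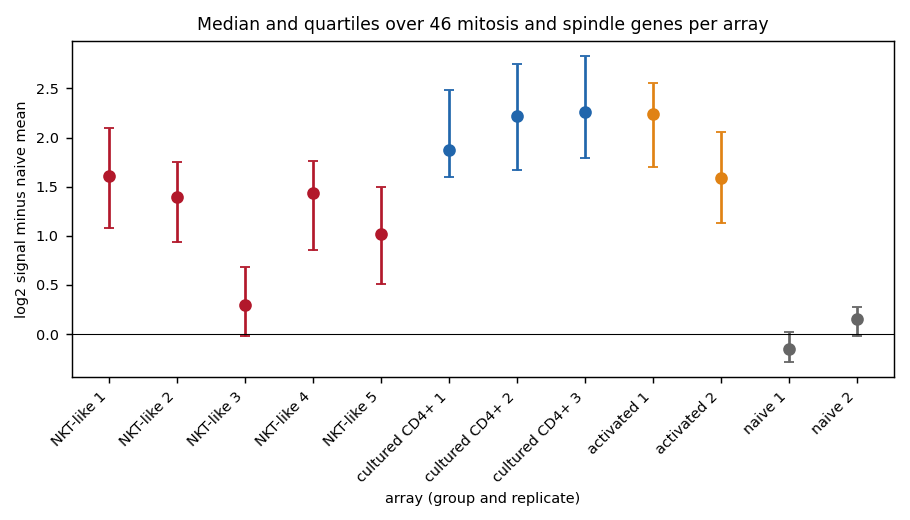
Each point is the median over the 46 mitosis and spindle genes of the log2 signal minus the mean of the 2 naive arrays, for 1 array, and bars span the first to the third quartile of the genes. NKT-like replicate 3, at 0.30, lies below the other NKT-like arrays (1.02 to 1.61), and the cultured CD4+ arrays lie at 1.87 to 2.26.

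Leaving out single arrays moved the counts. No share of all genes is given for these refits, so moves particular to these genes cannot be told from moves of all genes. Without NKT-like replicate 3, 33 genes passed as higher in NKT-like cells against naive cells, among them all 20 of the full set. Without NKT-like replicate 1, 2, 4 or 5 the count was 14, 16, 14 and 16, and without a cultured CD4+ array 17 to 19. The calls lost there were those of Aurka, Bub1, Bub1b, Kif2c, Ndc80 and Spc25. With a single naive array, whose spread is then taken from the other groups, 4 genes passed without naive replicate 1 (Tpx2, Nusap1, Ncapg and Ube2c) and 1 without naive replicate 2 (Ube2c). For cultured CD4+ against naive cells the counts were 22 and 23 without naive replicate 1 or 2, and for activated against naive cells 4 and 2. Without activated replicate 1 the count of activated against naive cells was 2 (Aurkb and Ncapg).

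Red cell and B cell markers also had higher sums in the naive arrays. Summed on the linear scale, 15 measured red cell precursor markers came to 1490 to 1870 in the NKT-like arrays, 1240 to 1460 in the cultured CD4+ arrays and 1470 and 1790 in the activated arrays, against 10200 and 13600 in the naive arrays, and all 15 had their highest mean in naive cells. Most of the naive sums came from Car1, Car2 and Klf1, and some margins were small. Against naive cells 12 of the 15 passed as lower in NKT-like cells and 8 in activated cells (6.86% and 2.78% of all genes). The defining haem gene Alas2 and the globin gene Hba-a1 stayed near the low end of the scale in every array (5.18 to 5.59). Alas2, at 5.38 and 5.56 in the naive arrays, lay within the range of the NKT-like arrays. The sum of 9 B cell markers was 454 to 550 in the NKT-like arrays, 407 to 479 in the cultured CD4+ arrays and 602 and 620 in the activated arrays, against 9250 and 8460 in the naive arrays, most of it from Jchain. By mean, 8 of the 9 were highest in naive cells, the exception being Ebf1, but some margins were small. Pax5, at 6.43 and 6.41 in the naive arrays, lay within the range of the NKT-like arrays. Ms4a1 was at 8.77 and 8.17 in the naive arrays and at most 7.12 elsewhere. No share of all genes highest in naive cells is given for these marker counts. The sum of 10 myeloid markers was 848 to 983 in NKT-like, 720 to 901 in cultured CD4+, 797 and 1100 in activated and 1020 and 1160 in naive arrays, which overlapped the activated arrays, and 6 of the 10 had their highest mean in naive cells. The part of these cells in the naive values was not tested.

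**Figure D2:**
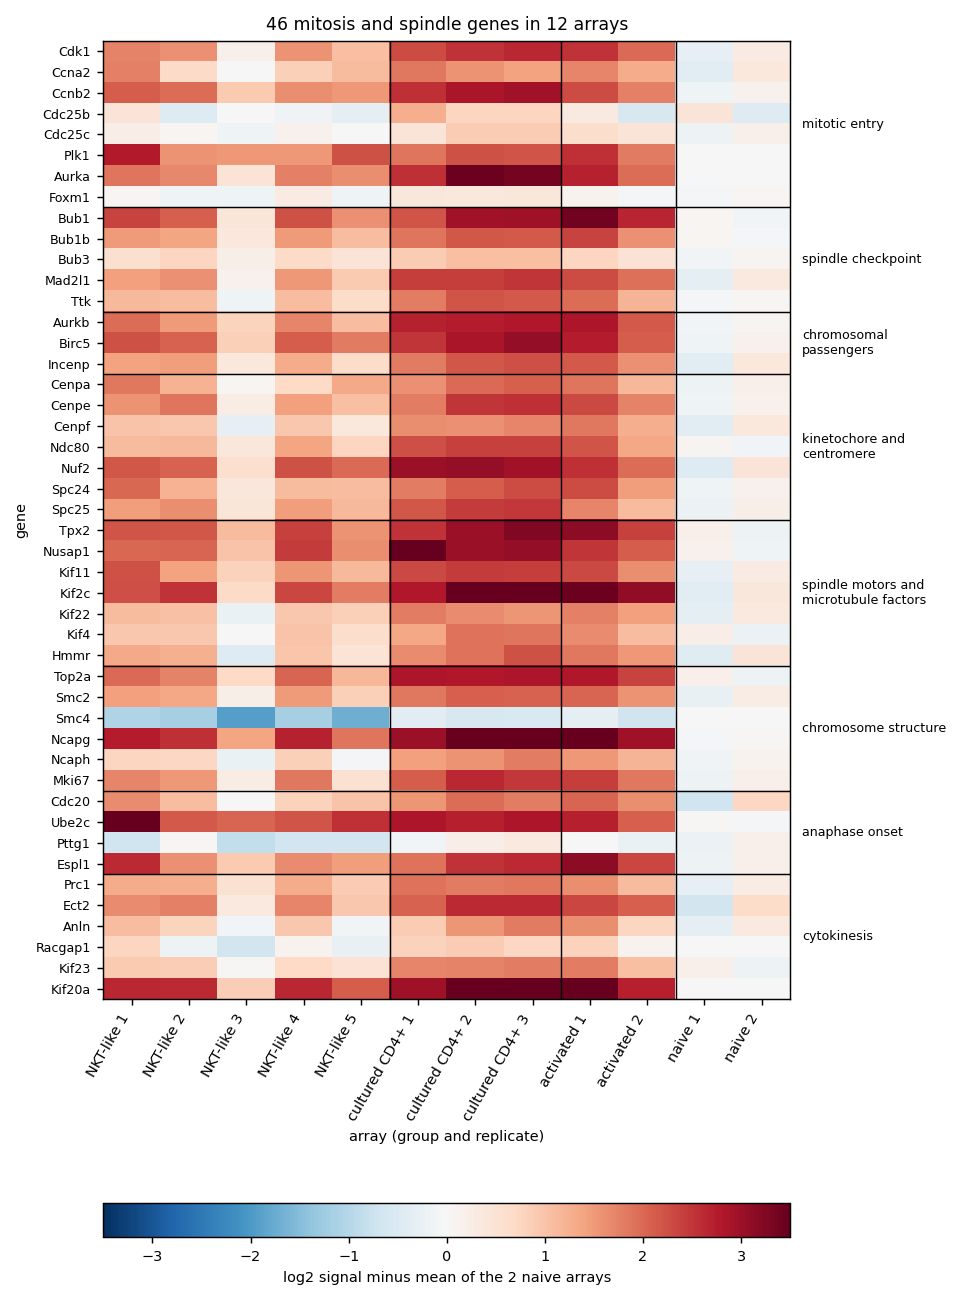
Each cell is the log2 signal of a gene in an array minus the mean of that gene in the 2 naive arrays, with genes grouped by role and arrays by group. Red, higher than naive, fills most of the cultured CD4+ and activated columns, NKT-like replicate 3 is pale, and the row of Smc4 is blue in all 5 NKT-like arrays.

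Among the genes of mitotic entry, 3 of 8 passed as higher against naive cells in NKT-like cells, 6 in cultured CD4+ cells and 4 in activated cells. Over all genes 10.7%, 11.6% and 4.43% passed as higher in these 3 comparisons, and the same shares apply to each role below. Plk1, a kinase that drives centrosome maturation and mitotic entry, measured 9.82, 8.63, 8.56, 8.58 and 9.27 in the NKT-like arrays, 8.92, 9.29 and 9.26 in the cultured CD4+ arrays, 9.61 and 8.86 in the activated arrays and 7.06 and 7.03 in the naive arrays. All cultured and activated arrays were above both naive arrays, and the 3 stimulated groups overlapped each other. Against naive cells Plk1 was higher in NKT-like cells by 1.93 ± 0.33 on the log2 scale (SE, q = 0.00092), by 2.11 ± 0.36 in cultured CD4+ cells and by 2.19 ± 0.39 in activated cells. Between NKT-like and cultured CD4+ cells the difference was -0.18, with a 95% interval of -0.81 to 0.45, the smallest of the 46. The other genes higher in NKT-like cells were Ccnb2, a B-type cyclin (3.09-fold), and Aurka, the kinase of the spindle poles (2.80-fold).

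Cdk1, the catalytic partner of the mitotic cyclins, missed the threshold in NKT-like cells (log2 difference 1.23 ± 0.36, q = 0.013) and was higher in cultured CD4+ cells (5.63-fold) and in activated cells (4.75-fold). Cdc25b, a phosphatase that removes inhibitory marks from cyclin-dependent kinases, measured 8.27, 7.39, 7.81, 7.71 and 7.51 in the NKT-like arrays, 9.11, 8.59 and 8.58 in the cultured CD4+ arrays, 8.15 and 7.28 in the activated arrays and 8.28 and 7.39 in the naive arrays. The NKT-like arrays lay within the range of the naive arrays (log2 difference -0.09, q = 0.35), and only the cultured CD4+ arrays lay above both naive arrays. Foxm1, a transcription factor that acts on late cell cycle promoters, measured 8.76, 8.54, 8.56, 8.99 and 8.54 in the NKT-like arrays, 9.11, 9.08 and 9.10 in the cultured CD4+ arrays, 8.81 and 8.62 in the activated arrays and 8.64 and 8.76 in the naive arrays. The NKT-like and naive arrays overlapped (log2 difference -0.03, q = 0.37), and a second probe set of Foxm1 with a lower signal gave a difference of 0.82 (q = 0.019), so its probe sets disagreed.

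In the spindle checkpoint, 2 of 5 genes were higher in NKT-like cells, all 5 in cultured CD4+ cells and 3 in activated cells. Bub1, a checkpoint kinase at the kinetochore, measured 9.08, 8.81, 7.14, 8.94 and 8.31 in the NKT-like arrays, 8.91, 9.66 and 9.69 in the cultured CD4+ arrays, 10.09 and 9.37 in the activated arrays and 6.79 and 6.62 in the naive arrays. NKT-like replicate 3, at 7.14, was the lowest NKT-like array, and lay above both naive arrays. The difference from naive cells was 1.75 ± 0.45 in NKT-like cells (q = 0.0075), 2.71 ± 0.49 in cultured CD4+ cells and 3.03 ± 0.54 in activated cells.

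Bub3, which carries Bub1 and Bub1b to the kinetochore, measured 11.51, 11.69, 11.14, 11.61 and 11.38 in the NKT-like arrays, 11.82, 11.99 and 11.99 in the cultured CD4+ arrays, 11.70 and 11.45 in the activated arrays and 10.84 and 11.03 in the naive arrays. Its groups did not overlap between NKT-like and naive cells, but the difference was small, 0.53 ± 0.15, and missed the threshold (q = 0.011). It passed in cultured CD4+ cells, at 1.00 ± 0.16. Bub1b, the kinase-like partner of Bub3, was 2.24-fold higher in NKT-like cells, whereas Mad2l1, the inhibitor of Cdc20 (q = 0.015), and Ttk, the kinase that starts checkpoint signalling (q = 0.044), did not pass.

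In the chromosomal passenger complex, which corrects faulty attachments and acts again in cytokinesis, 2 of 3 genes were higher in NKT-like cells and all 3 in cultured CD4+ and in activated cells. Birc5, its survivin subunit, measured 10.51, 10.33, 9.10, 10.39 and 10.10 in the NKT-like arrays, 10.77, 11.13 and 11.34 in the cultured CD4+ arrays, 11.03 and 10.39 in the activated arrays and 8.11 and 8.43 in the naive arrays. Every NKT-like array was above both naive arrays, and the differences from naive cells were 1.82 ± 0.34 (q = 0.0015) in NKT-like cells, 2.82 ± 0.37 in cultured CD4+ cells and 2.44 ± 0.41 in activated cells. Incenp, the scaffold, measured 10.57, 10.62, 9.53, 10.46 and 9.80 in the NKT-like arrays, 10.97, 11.34 and 11.41 in the cultured CD4+ arrays, 11.32 and 10.75 in the activated arrays and 8.78 and 9.54 in the naive arrays. NKT-like replicate 3 lay just below naive replicate 2, and the difference of 1.03 ± 0.32 missed the threshold (q = 0.016), while another probe set of Incenp was higher by 1.66 (q = 0.00029).

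At the kinetochore and centromere, 3 of 7 genes were higher in NKT-like cells, all 7 in cultured CD4+ cells and 2 in activated cells. Ndc80, Nuf2, Spc24 and Spc25 form the complex that holds microtubules. Nuf2 measured 8.52, 8.40, 6.94, 8.57 and 8.33 in the NKT-like arrays, 9.37, 9.41 and 9.28 in the cultured CD4+ arrays, 8.90 and 8.29 in the activated arrays and 5.89 and 6.79 in the naive arrays. NKT-like replicate 3 was only slightly above the higher naive array. Nuf2 was higher by 1.81 ± 0.40 in NKT-like cells (q = 0.0037), by 3.01 ± 0.44 in cultured CD4+ cells and by 2.25 ± 0.48 in activated cells.

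Ndc80 and Spc25 also passed in NKT-like cells (1.94-fold and 2.33-fold), and Spc24 did not (q = 0.014). Cenpf, a large protein of the outer kinetochore, measured 8.58, 8.54, 7.29, 8.54 and 7.97 in the NKT-like arrays, 9.21, 9.20 and 9.30 in the cultured CD4+ arrays, 9.43 and 8.86 in the activated arrays and 7.21 and 7.97 in the naive arrays. The NKT-like and naive arrays overlapped (difference 0.59 ± 0.34, q = 0.091), while the cultured CD4+ arrays were all above the naive arrays (1.65 ± 0.37). A dimmer probe set of Cenpf was lower in NKT-like cells, by -0.43 (q = 0.0091). Cenpa, the histone variant that marks centromeres, was higher in cultured CD4+ cells (3.70-fold) and did not pass in NKT-like (q = 0.033) or activated cells (q = 0.039). Cenpe, a kinesin that carries chromosomes to the spindle equator, was also higher in cultured CD4+ cells (4.88-fold) and did not pass in NKT-like cells (q = 0.015).

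Of the spindle motors and microtubule factors, 4 of 7 were higher in NKT-like cells, all 7 in cultured CD4+ cells and 4 in activated cells. Kif2c, a kinesin that shortens microtubules at centromeres, measured 8.67, 8.96, 7.09, 8.75 and 8.20 in the NKT-like arrays, 9.22, 10.07 and 10.09 in the cultured CD4+ arrays, 9.84 and 9.52 in the activated arrays and 6.01 and 6.82 in the naive arrays. NKT-like replicate 3, at 7.09, lay between the naive arrays and the other NKT-like arrays. The differences were 1.92 ± 0.45 (q = 0.0049) in NKT-like cells, 3.38 ± 0.49 in cultured CD4+ cells and 3.27 ± 0.54 in activated cells. Tpx2, which activates Aurka on the spindle (3.72-fold), Nusap1, a microtubule bundler (3.54-fold), and Kif11, the motor that pushes the poles apart, were the others higher in NKT-like cells.

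Kif4, a chromosome-bound kinesin, measured 8.35, 8.34, 7.43, 8.40 and 8.02 in the NKT-like arrays, 8.77, 9.31 and 9.28 in the cultured CD4+ arrays, 9.06 and 8.49 in the activated arrays and 7.63 and 7.20 in the naive arrays. NKT-like replicate 3 fell between the naive arrays, and the difference of 0.70 ± 0.28 did not pass (q = 0.037). For Kif22 and Hmmr, a chromokinesin and a spindle assembly factor, the chosen probe set did not pass in NKT-like cells, but other probe sets with a lower signal did, by 1.96 and 0.96 for Kif22 and by 1.61 and 1.40 for Hmmr. Over all 106 probe sets of the 46 genes, 33 passed as higher and 4 as lower in NKT-like cells against naive cells, and in 16 of the 31 genes with several probe sets the signs differed. In cultured CD4+ cells 63 of the 106 passed as higher and 0 as lower, and the signs differed in 13 of the 31 genes. In activated cells 38 passed as higher and 0 as lower, and the signs differed in 10.

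**Figure D3:**
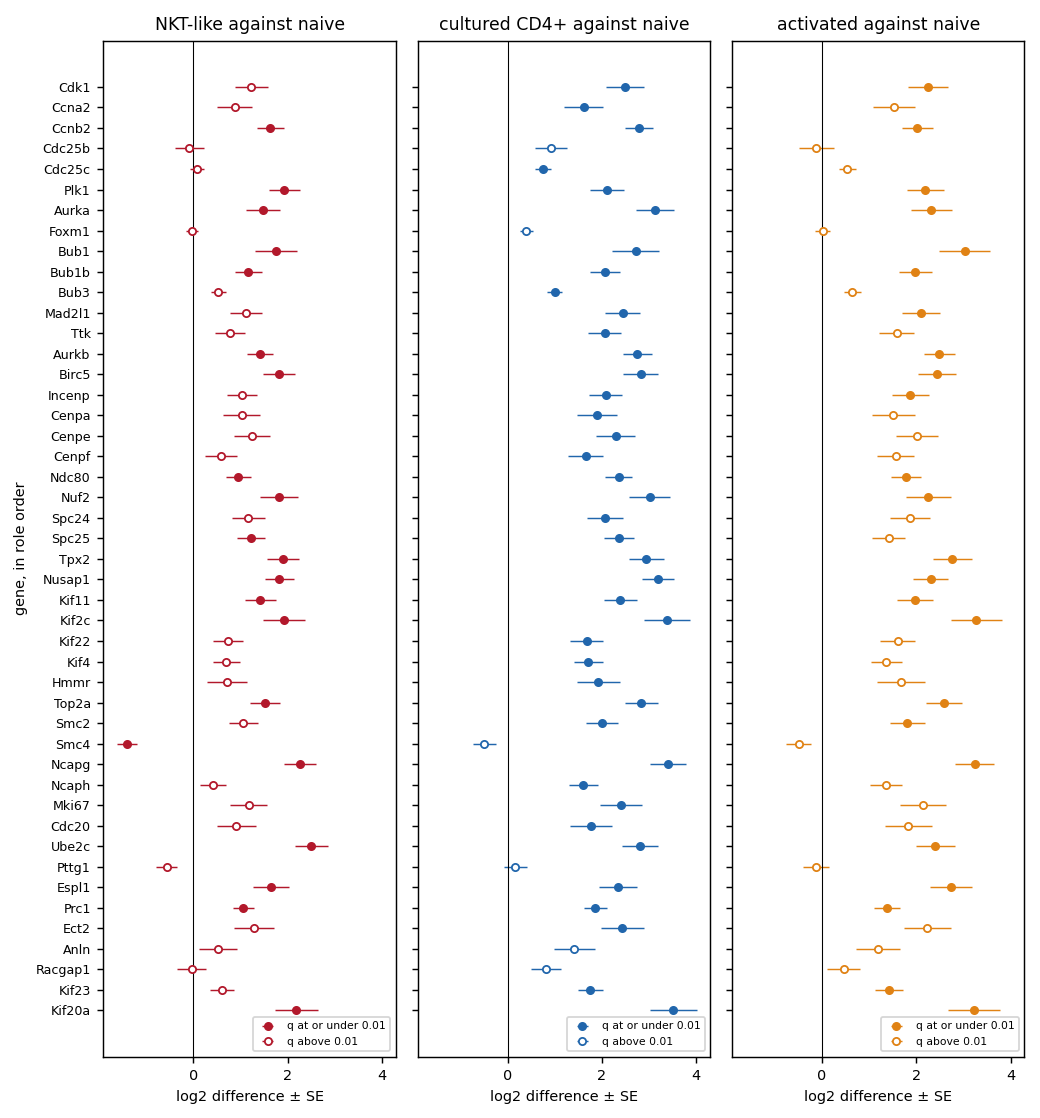
Points are log2 differences from naive cells with their SE for the 46 genes, in NKT-like, cultured CD4+ and activated cells, and filled points passed at q ≤ 0.01. Filled points number 21, 40 and 24, all to the right of 0 except Smc4 in NKT-like cells at -1.41.

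Chromosome structure held the gene that rose most after Ube2c and the gene that fell. Here 2 of 6 genes were higher and 1 lower in NKT-like cells, 5 were higher in cultured CD4+ cells and 3 in activated cells. Ncapg, a subunit of condensin I, measured 8.37, 8.19, 7.02, 8.32 and 7.50 in the NKT-like arrays, 8.66, 9.23 and 9.22 in the cultured CD4+ arrays, 9.15 and 8.59 in the activated arrays and 5.58 and 5.68 in the naive arrays. All NKT-like arrays were well above both naive arrays, and the differences were 2.25 ± 0.34 (q = 0.00049) in NKT-like cells, 3.40 ± 0.38 in cultured CD4+ cells and 3.24 ± 0.41 in activated cells.

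Smc4, the ATPase core of both condensins, measured 11.12, 11.02, 10.24, 11.00 and 10.46 in the NKT-like arrays, 11.76, 11.61 and 11.64 in the cultured CD4+ arrays, 11.86 and 11.48 in the activated arrays and 12.19 and 12.15 in the naive arrays. The naive arrays were the highest of the 12, and all NKT-like arrays were below the other groups. Against naive cells the Smc4 difference was -1.41 ± 0.22 in NKT-like cells (2.65-fold lower, q = 0.00063), -0.50 in cultured CD4+ cells (q = 0.068) and -0.50 in activated cells (q = 0.18). Of its other probe sets, 1 was lower by -1.12 (q = 0.0049) and 1 differed by -0.51 (q = 0.11), and the call was lost without naive replicate 2 (difference -1.42, q = 0.015). Its partner Smc2 differed by 1.06 ± 0.31 (q = 0.013), with the opposite sign.

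Top2a, the topoisomerase that untangles sister chromatids, was higher in NKT-like cells (2.87-fold), cultured CD4+ cells (7.10-fold) and activated cells (5.98-fold). Mki67, the coat protein of mitotic chromosomes and a common label of dividing cells, missed the threshold in NKT-like cells (1.17 ± 0.40, q = 0.024) and in activated cells (2.14 ± 0.48, q = 0.011), and was higher in cultured CD4+ cells (5.30-fold). Ncaph, another condensin I subunit, did not pass on the chosen probe set (0.41, q = 0.13) and was higher by 1.38 on the other (q = 0.0028).

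Among genes of anaphase onset, 2 of 4 were higher in NKT-like cells, 3 in cultured CD4+ cells and 2 in activated cells. Ube2c measured 11.36, 9.94, 9.83, 9.99 and 10.35 in the NKT-like arrays, 10.63, 10.52 and 10.64 in the cultured CD4+ arrays, 10.52 and 9.88 in the activated arrays and 7.84 and 7.75 in the naive arrays. Replicate 1 was the highest of the 12 arrays, 1.40 above the median of the other NKT-like arrays. The difference from naive cells was 2.50 ± 0.35 (q = 0.00027) in NKT-like cells, the largest of the 46, and it stayed past the threshold when any single array was left out. It was 2.80 ± 0.38 in cultured CD4+ cells and 2.40 ± 0.41 in activated cells.

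Pttg1, securin, the protein that holds separase inactive, measured 11.06, 11.80, 10.89, 11.08 and 11.10 in the NKT-like arrays, 11.67, 11.99 and 12.10 in the cultured CD4+ arrays, 11.74 and 11.52 in the activated arrays and 11.56 and 11.95 in the naive arrays. Of the NKT-like arrays 4 lay below both naive arrays and replicate 2 lay between them, and the difference of -0.57 ± 0.22 did not pass (q = 0.036). Its other probe sets differed by 0.52 (q = 0.11) and -0.47 (q = 0.0086, lower). Espl1, separase itself, was higher in NKT-like cells (1.65 ± 0.38, q = 0.0043), cultured CD4+ cells (2.34 ± 0.41) and activated cells (2.73 ± 0.45). Cdc20, the activator of the anaphase-promoting complex, was higher in cultured CD4+ cells (3.40-fold) and did not pass in NKT-like cells (0.91 ± 0.42, q = 0.056), where its naive arrays stood at 8.87 and 10.30.

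In cytokinesis, 2 of 6 genes were higher in NKT-like cells, 4 in cultured CD4+ cells and 3 in activated cells. Kif20a, which brings the passenger complex to the midzone, measured 8.19, 8.17, 6.43, 8.20 and 7.69 in the NKT-like arrays, 8.53, 9.29 and 9.39 in the cultured CD4+ arrays, 9.28 and 8.27 in the activated arrays and 5.57 and 5.54 in the naive arrays. NKT-like replicate 3 was the lowest cultured array but above both naive arrays, and the differences were 2.18 ± 0.46 (q = 0.0029) in NKT-like cells, 3.51 ± 0.50 in cultured CD4+ cells and 3.22 ± 0.55 in activated cells. Racgap1, which with Kif23 forms centralspindlin, measured 10.12, 9.20, 8.75, 9.50 and 9.12 in the NKT-like arrays, 10.19, 10.27 and 10.10 in the cultured CD4+ arrays, 10.18 and 9.50 in the activated arrays and 9.37 and 9.39 in the naive arrays. The NKT-like arrays spread to both sides of the naive pair (difference -0.04, q = 0.38), and the difference was 0.81 in cultured CD4+ cells (q = 0.040). Prc1, which bundles midzone microtubules, was the other gene higher in NKT-like cells (2.09-fold). Kif23 was at 0.60 ± 0.25 (q = 0.041), Ect2, which directs the contractile ring, at 1.28 ± 0.42 (q = 0.019), and Anln, a scaffold of that ring, at 0.52 ± 0.40 (q = 0.15).

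**Figure D4:**
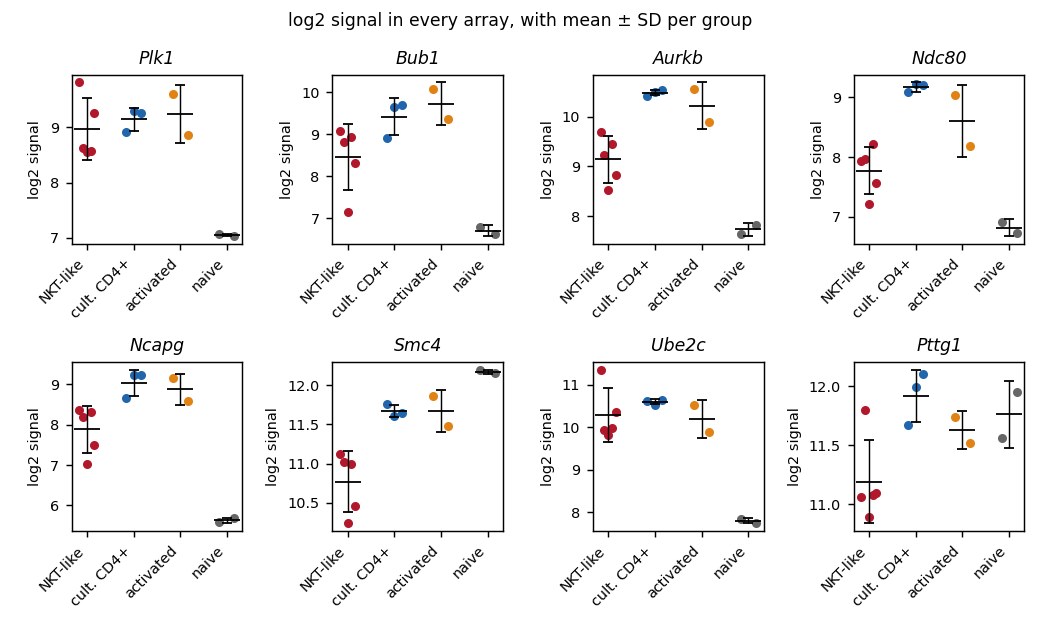
Points are log2 signals of 8 genes in every array, with the mean and SD of each group as a bar (n = 5, 3, 2 and 2 for NKT-like, cultured CD4+, activated and naive cells). For Plk1, Bub1, Aurkb, Ndc80, Ncapg and Ube2c both naive arrays lie below all others, for Smc4 they lie above all others, and for Pttg1 the groups overlap, on vertical ranges that differ by panel and do not start at 0.

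The direct comparison of the 2 bead cultures gave a difference below 0 for every gene on its chosen probe set. Among the 31 genes with several probe sets, the sign differed between them in 8. All 46 log2 differences between NKT-like and cultured CD4+ cells were below 0, where 51.1% of all genes were, with a median of -1.03 and a range of -1.63 to -0.18. In 34 genes all 5 NKT-like arrays lay below all 3 cultured CD4+ arrays, against 8.26% of all genes. Few single genes passed, 3 lower and 0 higher (background 1.85% lower and 1.24% higher), although 43 had an unadjusted p under 0.05, all lower, against 10.7% of all genes. The 46 genes share the same 8 arrays and are not independent of each other.

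The 3 that passed act on attachment and division. Aurkb, the kinase of the passenger complex, measured 9.68, 9.23, 8.52, 9.45 and 8.82 in the NKT-like arrays, 10.42, 10.49 and 10.53 in the cultured CD4+ arrays, 10.55 and 9.89 in the activated arrays and 7.64 and 7.82 in the naive arrays. The lowest cultured CD4+ array was above the highest NKT-like array, and the difference was -1.34 ± 0.24 (q = 0.0078, NKT-like cells 2.53-fold lower). Ndc80 measured 7.93, 7.96, 7.21, 8.21 and 7.57 in the NKT-like arrays, 9.08, 9.22 and 9.21 in the cultured CD4+ arrays, 9.03 and 8.18 in the activated arrays and 6.92 and 6.73 in the naive arrays, again without overlap between the bead cultures, and differed by -1.39 ± 0.23 (2.63-fold lower, q = 0.0046).

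Kif23, the motor of centralspindlin, measured 9.04, 9.0, 8.16, 8.82 and 8.64 in the NKT-like arrays, 9.85, 9.87 and 9.92 in the cultured CD4+ arrays, 9.92 and 9.17 in the activated arrays and 8.30 and 7.96 in the naive arrays. Its difference was -1.15 ± 0.21 (q = 0.0094, NKT-like cells 2.21-fold lower). Of the 60 probe sets that were not chosen to stand for a gene, 0 passed as lower in this comparison. The calls of Aurkb, which has 2 probe sets, and Kif23, which has 3, were therefore made on the chosen probe set only. Ndc80 has 1 probe set. The largest difference of the 46, that of Aurka at -1.63 ± 0.32, had a wider spread and missed the threshold (q = 0.012). These calls depended on single arrays. There were 5 lower genes without NKT-like replicate 3, with Aurka and Nusap1 added, 1 without naive replicate 1 or 2 (Ndc80), and 0 without NKT-like replicate 5 or without cultured CD4+ replicate 2 or 3. Without cultured CD4+ replicate 1 the 2 that passed were Cdc25c and Aurka. After median centring the 1 that passed was Ndc80.

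Against activated cells, 44 of the 46 differences of NKT-like cells were below 0, where 56.2% of all genes were, the exceptions being Cdc25b (0.02) and Ube2c (0.10), and the median was -0.81. None passed in either direction at q ≤ 0.01 in limma (background 3.36% higher and 1.00% lower) or after Benjamini-Hochberg adjustment, and 27 had an unadjusted p under 0.05, all lower, against 10.3% of all genes. All 5 NKT-like arrays lay below both activated arrays for 24 genes, against 10.6% of all genes. Over all 106 probe sets 2 passed as lower, a dimmer one of Top2a (-1.41, q = 0.0052) and a dimmer one of Hmmr (-0.69, q = 0.004). The sign differed between probe sets in 6 of the 31 genes with several. For the chosen probe sets the differences nearest the threshold were those of Smc4 (-0.90, q = 0.023) and Aurkb (-1.08, q = 0.026). For Plk1 the 95% interval of the difference ran from -0.98 to 0.46 and for Ube2c from -0.67 to 0.86, so differences of this size could not be told from 0.

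**Figure D5:**
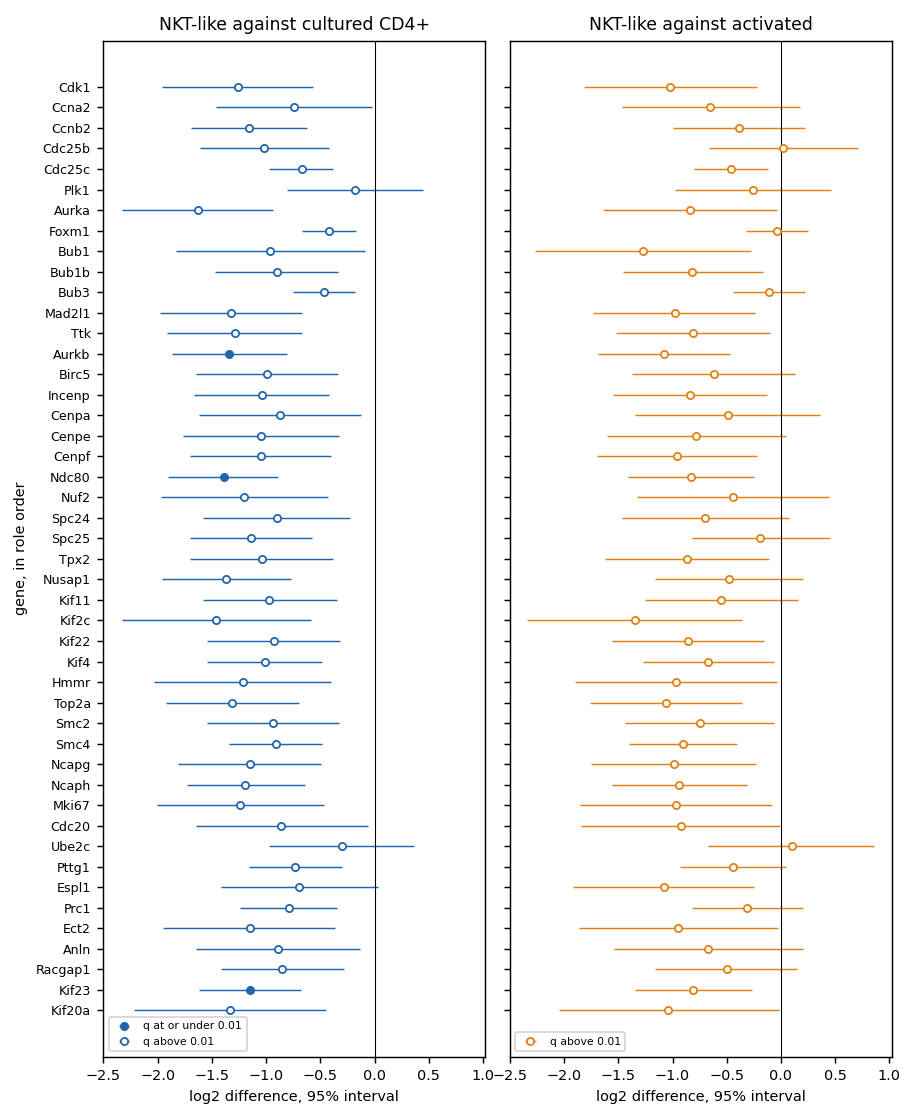
Points are log2 differences of NKT-like cells from cultured CD4+ cells (left) and from activated cells (right) with 95% intervals for the 46 genes, and filled points passed at q ≤ 0.01. All 46 points on the left and 44 on the right lie below 0, and the filled points on the left are Aurkb, Ndc80 and Kif23.

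Other genes of the same pathway, taken from lists written out by name, were counted in the same fits. The shares over all genes against naive cells were 10.7% higher in NKT-like cells, 11.6% in cultured CD4+ cells and 4.43% in activated cells. These shares are from the full fit, and none is given with an array left out. Of 58 other mitosis genes measured, 23 passed as higher against naive cells in NKT-like cells, 48 in cultured CD4+ cells and 32 in activated cells (39.7%, 82.8% and 55.2%), with 0 lower in each. Leaving out 1 array gave 3 to 29, 24 to 49 and 1 to 40, with the lowest counts without naive replicate 2, without either naive array, and without activated replicate 1. The largest differences in NKT-like cells were those of Psrc1, a microtubule-associated spindle protein (10.09 ± 0.36 in NKT-like and 5.84 ± 0.21 in naive cells, mean ± SD, n = 5 and 2, 19.1-fold), Cep55, which acts at abscission (6.35-fold), Tacc3, a spindle stabiliser (4.72-fold), and Melk, a mitotic kinase (4.33-fold). Psrc1 was also 7.15-fold higher in NKT-like than in activated cells (q = 2.6e-05) and differed from cultured CD4+ cells by -0.04 (q = 0.86). In NKT-like against cultured CD4+ cells 4 of the 58 were lower, Melk, Cenpl, Cenpt and Ska2, where 1.85% of all genes were, and all 58 differences were below 0, against 51.1% of all genes. The 4 became 0 without NKT-like replicate 5 or cultured CD4+ replicate 2 or 3, 1 without either naive array, 2 without NKT-like replicate 1 and 8 without either activated array.

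Other components of the machinery were counted against the same background. Of 14 subunits of the anaphase-promoting complex, counting its activator Fzr1, 1 was higher in NKT-like cells (Anapc11, 2.21-fold), 5 in cultured CD4+ cells and 0 in activated cells, and of 10 cohesin genes the counts were 0, 3 (Smc1a, Stag1 and Rad21) and 0. The 1 of 14 in NKT-like cells is 7.14%, near the share over all genes. Leaving out 1 array gave 0 to 3, 0 to 9 and 0 to 4 for the anaphase-promoting complex and 0 to 1, 0 to 4 and 0 to 1 for cohesin, and in cultured CD4+ cells both were 0 without naive replicate 2. Of 21 genes of the DREAM, RB and B-MYB regulators, which hold these promoters silent or switch them on, 6 were higher and 1 lower in NKT-like cells, led by E2f7 (3.23-fold) and Tfdp1 (2.51-fold), and the lower one was Lin52 (-0.60, q = 0.0017). The 6 of 21 are 28.6%, and became 0 without naive replicate 1 and 1 without naive replicate 2, where Lin52 was not called either. In cultured CD4+ cells 10 of the 21 were higher (47.6%), with E2f7 at 6.55-fold, and Lin52 was again lower (-0.57, q = 0.0037). In activated cells 4 were higher (19%). Rbl2, the p130 repressor, was 12.2-fold higher in NKT-like than in activated cells (10.14 ± 0.30 and 6.54 ± 1.44), with a wide spread between the 2 activated arrays. It was also 7.21-fold higher in cultured CD4+ than in activated cells (q = 0.0072), a call that was not kept in every fit with an array left out. Between NKT-like and cultured CD4+ cells Rbl2 differed by 0.76 (q = 0.37).

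Of 8 brakes on mitotic entry, 1 was higher in NKT-like cells, 5 in cultured CD4+ cells and 1 in activated cells. The 1 of 8 in NKT-like cells (12.5%) is near the share over all genes, and the 5 became 1 without cultured CD4+ replicate 2 or 3 or without either naive array. The 1 in NKT-like and in activated cells was Cdkn1a, the p21 inhibitor of cyclin-dependent kinases. It averaged 12.31 ± 0.31 in NKT-like cells, 11.90 ± 0.37 in cultured CD4+ cells and 9.87 ± 0.17 in activated cells, against 7.63 ± 0.06 in naive cells (SD), which is 25.7-fold higher in NKT-like cells (q = 1.4e-07). It was also 5.45-fold higher in NKT-like than in activated cells (q = 7.2e-05), a direction opposite to that of most mitosis genes in that comparison. Of 39 genes of DNA replication and nucleotide supply, 15 passed as higher against naive cells in NKT-like cells, 29 in cultured CD4+ cells and 24 in activated cells (38.5%, 74.4% and 61.5%), led in NKT-like cells by Rfc3 (7.60-fold), Tk1 (4.15-fold) and Rrm2 (2.91-fold). Leaving out 1 array gave 1 to 17, 13 to 33 and 4 to 28, with the lowest counts without naive replicate 2 and, for activated cells, also without activated replicate 1. There 5 genes were lower in NKT-like than in activated cells, Mcm7, Mcm3, Mcm2, Lig1 and Pcna (1.00% of all genes), and 4 were lower than in cultured CD4+ cells, Cdc7, Gins1, Pcna and Lig1 (1.85% of all genes). The 5 became 0 without activated replicate 1, 1 without activated replicate 2, 2 without cultured CD4+ replicate 2 or without NKT-like replicate 2 or 5, and 3 without NKT-like replicate 4 or cultured CD4+ replicate 3, and the 4 became 0 without cultured CD4+ replicate 2 or 3 and 2 without NKT-like replicate 5 or either naive array.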

How the data were processed

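Total RNA of 12 mouse T cell samples was hybridised to Affymetrix mouse arrays, 1 array per sample. The authors deposited log2 signals made with RMA, which corrects background, applies quantile normalization and summarises each probe set. No source used here states which RMA release was run. Array medians ran from 6.23 to 6.42, and no further scaling was applied. Of 45101 probe sets, 64 controls were left out and 45037 tested, of which 34945 have 1 gene symbol, 932 several and 9160 none.

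The 4 groups were fitted in a single limma model (limma 3.58.1, R 4.3.3), with 8 residual and 3.03 prior degrees of freedom, and gave 6 pairwise comparisons. Storey q-values were computed over all tested probe sets, and a gene was called at q ≤ 0.01 at any fold size. All p-values and q-values are from this fit. The models were tested on simulated data. The numbers of arrays per group (5, 3, 2 and 2) limit the precision. The named genes are, per role, those with the largest and smallest difference of NKT-like from naive cells, those of opposite sign and those called in direct comparisons. The members and lists were chosen with earlier results of these data known. Alternatives in adjustment, threshold, prior, array weights, filter, normalization, probe set choice and left-out arrays are given at the end.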

Additional observations from a re-analysis of the deposited data

Results flagged for a closer look

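Among the 46 genes, each tested in the 5 NKT-like arrays, 5 had 1 array set apart from the rest by a gap above Dixon's 95% critical value. Chance alone flags about 1 in 20 such groups, and the genes share their arrays. In 4 of the 5 the array was NKT-like replicate 3, at the low end. Aurka measured 7.53 there, with the nearest other array at 8.66. Nuf2 measured 6.94, with the nearest at 8.33, Kif22 measured 9.78, with the nearest at 10.83, and Kif20a measured 6.43, with the nearest at 7.69. For Pttg1 the array was NKT-like replicate 2, at the high end, with 11.80 and the nearest at 11.10. Groups of 2 or 3 arrays were not tested in this way.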

How the results depend on the processing

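The count of 20 genes higher in NKT-like cells against naive cells became 13 with Benjamini-Hochberg adjustment, 35 at q ≤ 0.05 and 2 with the replicate number as a block (Nusap1 and Ube2c), where Smc4, the 1 lower gene, was at -1.23 (q = 0.012). Leaving out 1 array in turn gave 1 to 33. For activated against naive cells the count of 24 became 1 with each pair of groups fitted alone, 39 at q ≤ 0.05, 0 with array weights and 4 with the block, and leaving out 1 array gave 2 to 35. For cultured CD4+ against naive cells it ranged from 22 to 40 when 1 array was left out, and the other alternatives kept it within 1.5 times of 40. For NKT-like against cultured CD4+ cells the count of 3 lower genes became 17 at q ≤ 0.05, 5 with a trended robust prior, 13 with array weights, 8 with a filter on dim probe sets, 1 with median centring and 0 with the block, and leaving out 1 array gave 0 to 5. For NKT-like against activated cells the count of 0 became 5 at q ≤ 0.05, 1 with quantile normalization and 1 with the mean of all probe sets. Between cultured CD4+ and activated cells it was 0 in every setting run. No share of all genes is given for these alternatives, so whether all genes moved alike cannot be told. The deviations of same-numbered arrays from their group means correlated from -0.50 to 0.28. In a group of 2 arrays the deviations mirror each other, so these values cannot decide whether same-numbered samples were paired. The block also moved the differences themselves, and the cause of the lost calls was not tested.

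Of the named genes, 5 changed sign in NKT-like against naive cells, none of them called. The log2 difference of Cdc25b was 0.02 with median centring, 0.04 with the block and from -0.54 to 0.35 when 1 array was left out (0.35 without naive replicate 1). That of Racgap1 was 0.07 with median centring, 0.15 with the block, and from -0.24 to 0.10 when 1 array was left out (0.10 without NKT-like replicate 3 and 0.01 without replicate 5). That of Foxm1 was 0.09 with median centring, 0.20 as the mean of its probe sets, 0.82 on the probe set with the largest difference, and from -0.10 to 0.03 when 1 array was left out (0.00 to 0.03 without NKT-like replicate 2, 3 or 5 or naive replicate 2). Cenpf was at 0.00 as the mean of its probe sets, and Pttg1 was at 0.52 when probe sets shared with other transcripts were avoided. Median centring moved the median of all genes by -0.06 to 0.13. The cause of these changes was not tested. With 2 naive and 2 activated arrays the calls against these groups are the least secure, and probe sets near the low end of the scale, such as those of Ncapg and Kif20a in naive cells, understate fold changes.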
